A study of Mus musculus with 32 samples.

Results

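The 10 genes described here, of 25067 genes in the count table, encode secreted acute-phase proteins and antimicrobial proteins of innate immune cells. They were listed by symbol: Saa3, Lcn2, Ptx3, Hp, Slpi, S100a8, S100a9, Lyz1, Lyz2 and Camp. Each gene was followed through its most abundant RefSeq transcript. All 10 exceeded a group mean of 1 RPKM (counts scaled by transcript length and library size) somewhere in the series and so were among the 11279 genes tested, but Camp, Slpi and Ptx3 did so only in the groups where they were highest. The expression of these genes was described in bone marrow-derived macrophages (BMDMs) of both genotypes over a time course of lipopolysaccharide (LPS), a bacterial cell wall component that activates macrophages through Toll-like receptor signaling.

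RNA-seq libraries were made from BMDM-WT and BMDM-Nur77-KO cells at 0, 1, 5 and 18 h after addition of 100 ng/ml LPS, with 4 libraries in each of the 8 groups and 32 in all. Bone marrow came from male mice of 6 to 12 weeks and was grown for 7 days in L929-conditioned medium. Nur77 is the nuclear receptor encoded by Nr4a1. BMDM-Nur77-KO cells came from whole-body knockouts, made by crossing C57Bl6/J mice with Cre recombinase under the CMV promoter to mice with a loxP-flanked Nr4a1 locus. The knockouts were later bred free of Cre, and BMDM-WT cells came from their littermates. The sample labels name the knockout genotype only as cre. The replicates were wells seeded in parallel as far as the methods say, so the p-values below measure the spread between these wells, which may be technical. The 0 h libraries of a genotype are shared by its 1, 5 and 18 h comparisons. In bulk RNA, fewer cells of a type and less RNA per cell cannot be told apart.

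The acute phase response is the early change in secreted proteins after infection or injury. Serum amyloid A proteins, haptoglobin and pentraxins bind lipids, hemoglobin and microbial surfaces. Lysozymes, calprotectin (the S100a8 and S100a9 heterodimer), lipocalin 2 and cathelicidin act on bacteria directly, by cutting the cell wall, withholding metal or iron-loaded siderophores, or damaging membranes. Lysozyme is made constantly by macrophages, whereas many of the other proteins are known from liver or from neutrophil granules. NF-kB and C/EBP transcription factors are known activators of several acute-phase genes.

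Library depth was 8742362 to 15780926 counts over the kept transcripts. Nr4a1 checked the labels: its mean was 19.7 ± 4.34 CPM (counts scaled by library size, SD, n = 4) in BMDM-WT and 5.24 ± 1.19 in BMDM-Nur77-KO at 0 h, and 437 ± 60.3 and 191 ± 39.9 at 1 h. Every BMDM-Nur77-KO library was below every BMDM-WT library at 0, 1 and 5 h, while at 18 h all were at or below 0.477 CPM. The counts cover the whole transcript and do not separate deleted from remaining exons. The 8 macrophage markers, with Cd68, Adgre1 and Cd14 among them, summed to 6192 to 9559 CPM in BMDM-WT and 5553 to 8173 CPM in BMDM-Nur77-KO, with all BMDM-Nur77-KO libraries below all BMDM-WT libraries of the same time. Taken singly, most of the 8 markers did not pass the genotype limits used below (0.58 on the log2 scale, adjusted p under 0.05). Without Nur77, the number called lower was 1 before LPS, 0 after 1 h, 2 after 5 h and 2 after 18 h. The number called higher was 1, after 18 h only. The same limits, in either direction, called 4.81% of all genes tested before LPS, and 2.85%, 8.72% and 9.82% at the later times in turn. What part the lower marker sum had in the differences below was not tested. Marker lists of other cells summed to at most 4.76 CPM (B cell), 1.88 (fibroblast), 22.3 (dendritic cell), 0.490 (erythroid) and 3.10 (mast cell and basophil). The BMDM-Nur77-KO 5 h replicate 1 library lay farthest from its group. Its root mean square deviation was 0.547 on the log2 scale, against 0.156 to 0.388 in the other 31. The next was BMDM-Nur77-KO 18 h replicate 4, with 0.388. Among the BMDM-Nur77-KO 18 h libraries it held the lowest Saa3, Lcn2, Hp and Slpi and the highest Ptx3 and S100a8.

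The promoter stretches of Saa3, Lcn2 and Ptx3 are shown because these genes had large LPS responses with different time courses. RefSeq promoters of GRCm38.p6 were found for 9 of the 10 genes and reach from 250 bases before to 50 after the annotated start. For Saa3, this start lies inside the longer GENCODE span of the gene given below, whereas for Lcn2 and Ptx3 the starts agree. The C/EBP letters TTGCNNAA, searched on both strands, were in 6 of these 9 promoters (Saa3, Lcn2, Ptx3, Slpi, S100a9 and Lyz1) and in 10.8% of all 32851 promoters of the same length. The NF-kB motif was in 1 of 9, Ptx3, and in 4.51% of all, at overlapping positions on both strands. The AP-1 letters TGANTCA (7.81% of all promoters) and the letters AAAGGTCA, to which Nur77 binds as a monomer (1.51%), were in none of the 9. A match of letters does not show binding. Below, capitals mark the C/EBP match in Saa3, in Lcn2 and upstream in Ptx3, and the NF-kB matches at the end of the Ptx3 stretch, and each sequence runs 5′ to 3′ on the strand of the gene.
Saa3 (chr7:46715667-46715896, minus strand): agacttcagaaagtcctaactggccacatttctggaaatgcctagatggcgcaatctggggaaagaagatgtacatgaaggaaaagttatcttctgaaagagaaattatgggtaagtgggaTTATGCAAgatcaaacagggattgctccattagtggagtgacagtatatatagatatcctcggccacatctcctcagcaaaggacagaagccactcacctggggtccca
Lcn2 (chr2:32387730-32387959, minus strand): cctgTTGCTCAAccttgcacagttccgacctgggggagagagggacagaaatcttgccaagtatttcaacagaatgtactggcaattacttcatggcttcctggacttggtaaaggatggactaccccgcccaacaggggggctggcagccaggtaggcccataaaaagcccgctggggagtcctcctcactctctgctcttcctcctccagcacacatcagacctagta
Ptx3 (chr3:66219667-66219896, plus strand): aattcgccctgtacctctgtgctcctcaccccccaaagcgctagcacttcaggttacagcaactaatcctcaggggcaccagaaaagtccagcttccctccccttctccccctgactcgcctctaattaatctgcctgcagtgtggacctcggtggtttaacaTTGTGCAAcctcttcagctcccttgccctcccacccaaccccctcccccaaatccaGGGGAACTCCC

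LPS had unequal effects on the 10 genes. Saa3, Lcn2, Hp and Slpi rose to 18 h in both genotypes, Ptx3 rose early and was back near its starting level at 18 h, S100a8 and S100a9 stayed under the fold limit, Camp was lower at 18 h than at 5 h, and both lysozyme genes had their lowest levels at 18 h. A gene was said to respond when it changed by more than 1 on the log2 scale in either direction with an adjusted p under 0.05, from the quasi-likelihood test of edgeR adjusted over all genes tested by the Benjamini-Hochberg method. In BMDM-WT, 1 of the 10 genes responded at 1 h (5.18% of all genes tested did), 6 at 5 h (33.7%), and 5 at 18 h (27.4%). In BMDM-Nur77-KO, 2 responded at 1 h (4.53%), and 5 both at 5 h (32.6%) and at 18 h (31.8%). From 5 to 18 h, 6 genes changed in BMDM-WT (30.1%) and 7 in BMDM-Nur77-KO (28.6%). The members' median log2 fold change at 5 h was 1.25 in BMDM-WT and 1.14 in BMDM-Nur77-KO, beside medians over all genes tested of -0.14 and -0.12.

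**Figure D1:**
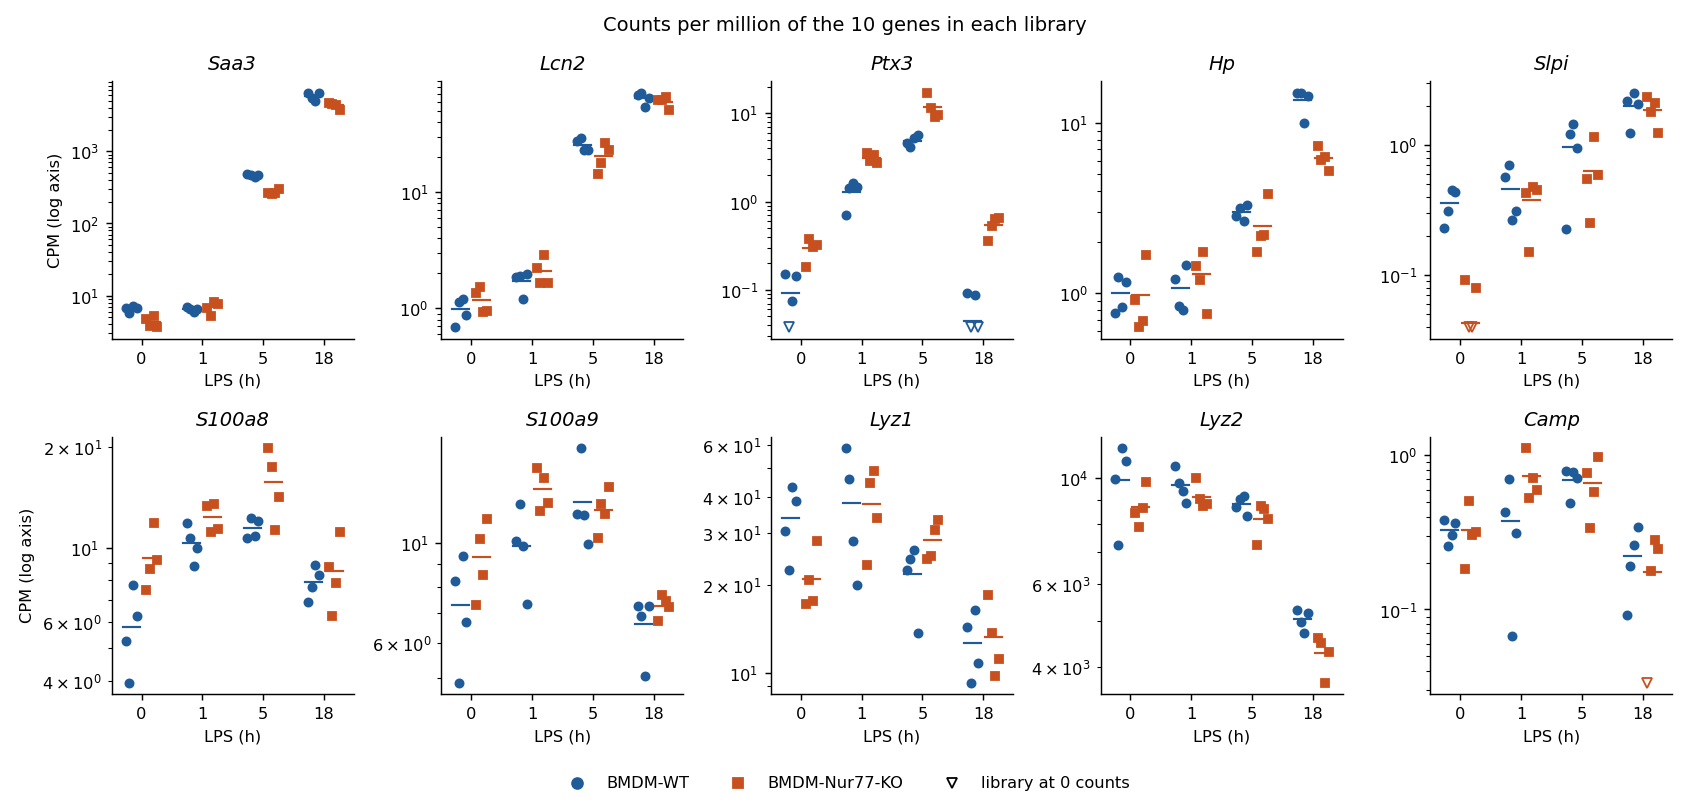
CPM of the 10 genes in each of the 32 libraries by hours of LPS, on a log axis of its own for each gene, with BMDM-WT as circles, BMDM-Nur77-KO as squares, group means as horizontal lines and libraries at 0 counts as open triangles at the bottom of the panel. Saa3 runs from 3.66 CPM in a BMDM-Nur77-KO library at 0 h to 6454 CPM in a BMDM-WT library at 18 h, and Ptx3 peaks at 5 h with the BMDM-Nur77-KO libraries above the BMDM-WT libraries at each time.

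Between the genotypes, some of the 10 genes differed at each time. In BMDM-Nur77-KO cells Ptx3 was the higher at 1, 5 and 18 h and S100a8 at 0 h, whereas Saa3 was lower at 0 and 5 h, Slpi at 0 h and Hp at 18 h. The limits here were 0.58 on the log2 scale in either direction and, as before, 0.05 for the adjusted p. By that rule, 3 genes differed at 0 h (4.81% of all genes tested did), 1 at 1 h (2.85%), 2 at 5 h (8.72%) and 2 at 18 h (9.82%). Median differences of the 10 genes were between -0.11 and 0.27 (log2) at the 4 times, so the differences had no common direction. The LPS response relative to 0 h differed between the genotypes for 0 genes at 1 h (0.0709% of all genes tested), 0 at 5 h (3.06%) and 1, Slpi, at 18 h (9.37%), by an adjusted p under 0.05 in the same edgeR model. At an unadjusted p under 0.05, these counts were 2, 2 and 3, and with DESeq2 0 genes passed at any of the 3 times.

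**Figure D2:**
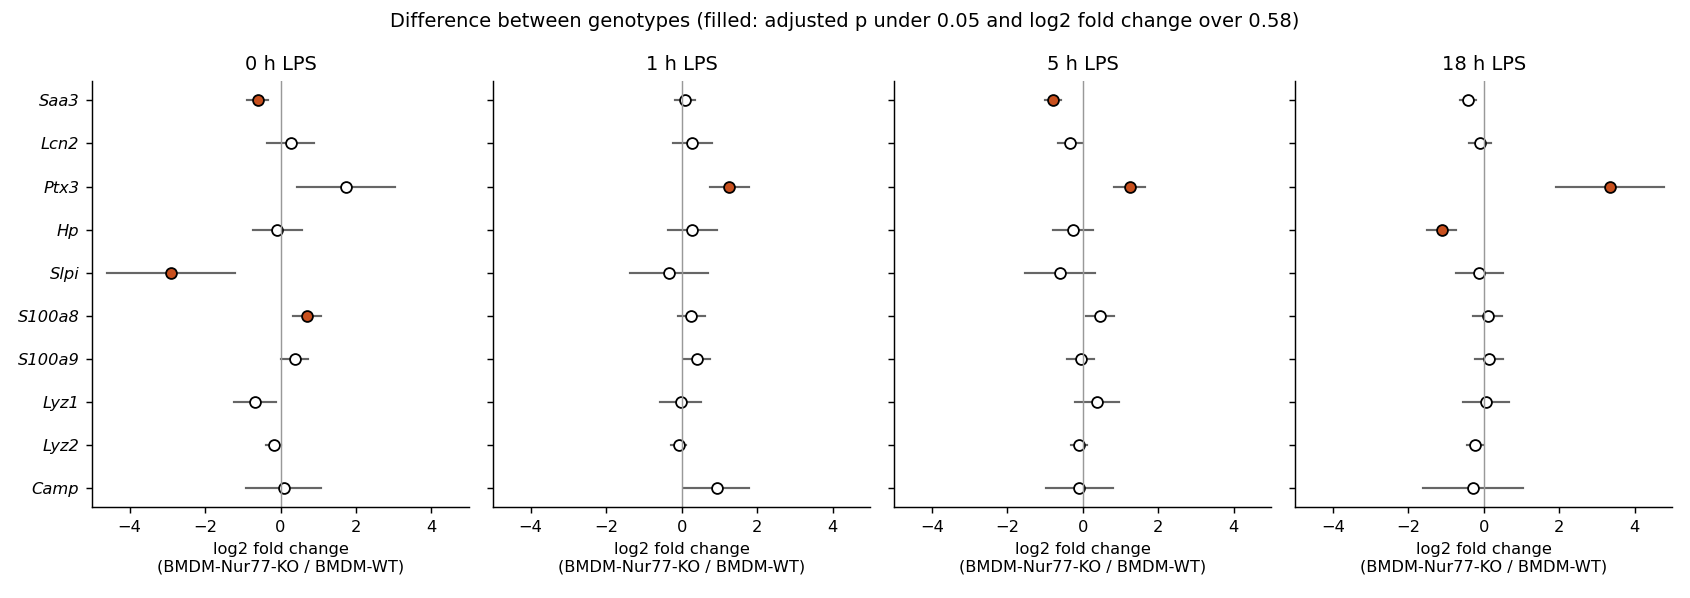
Log2 fold change of BMDM-Nur77-KO against BMDM-WT for the 10 genes at each time, from 4 libraries a group, with 95% intervals as bars and filled points for differences past both limits. Filled points lie on both sides of 0, with Ptx3 to the right at 1, 5 and 18 h and Saa3, Slpi and Hp to the left at some times.

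Saa3 (chr7:46711998-46719615, GENCODE M21 on GRCm38) encodes the serum amyloid A protein made outside the liver, which carries lipids and retinol and acts on leukocytes. In BMDM-WT, the 4 libraries held 5.81 to 7.11 CPM at 0 h, 6.02 to 6.96 at 1 h, 440 to 481 at 5 h and 4894, 5483, 6441 and 6454 at 18 h. The corresponding BMDM-Nur77-KO values were 3.66 to 5.21, 5.19 to 8.30, 255 to 297 and, at 18 h, 3693, 4323, 4575 and 4727. Saa3 was high at 5 h and highest at 18 h in both genotypes, and all BMDM-Nur77-KO libraries lay below all BMDM-WT libraries at 0, 5 and 18 h but not at 1 h. At 1 h the log2 fold change from 0 h was -0.01 ± 0.13 in BMDM-WT (adjusted p = 0.97) and 0.68 ± 0.14 in BMDM-Nur77-KO (adjusted p = 0.00055), the latter under the fold limit with 1 h and 0 h libraries that overlapped. The rise from 0 to 18 h was 882-fold in BMDM-WT (log2 9.78 ± 0.15 SE, adjusted p = 1.8e-29) and 998-fold in BMDM-Nur77-KO (9.96 ± 0.15, adjusted p = 1.3e-29). The share of Saa3 in the counts over the kept transcripts went from 0.000736% to 0.000857% in BMDM-WT at 0 h to 0.453% to 0.627% at 18 h, and in BMDM-Nur77-KO it reached 0.311% to 0.426%.

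The genotype difference of Saa3 was a log2 fold change of -0.60 ± 0.14 at 0 h (adjusted p = 0.0034), 0.09 ± 0.13 at 1 h (adjusted p = 0.83), -0.78 ± 0.10 at 5 h (adjusted p = 2.4e-06) and -0.43 ± 0.10 at 18 h (adjusted p = 0.0023). The 18 h value was under the fold limit. The 0 h value was close to that limit and fell under it, at -0.53 to -0.57, without BMDM-Nur77-KO 0 h replicate 2 (-0.54), BMDM-WT 0 h replicate 3 (-0.57) or BMDM-Nur77-KO 0 h replicate 4, while every adjusted p stayed under 0.05. The difference in the LPS response was 0.69 ± 0.19 at 1 h (adjusted p = 0.33), -0.18 ± 0.17 at 5 h (adjusted p = 0.68) and 0.18 ± 0.17 at 18 h (adjusted p = 0.64), with a 95% interval of -0.17 to 0.53 at 18 h. Hence the lower Saa3 at 5 and 18 h was not shown to differ from the lower Saa3 already present at 0 h.

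Lcn2 (chr2:32384637-32387739) encodes lipocalin 2, which binds bacterial siderophores and so withholds iron. BMDM-WT libraries held 0.687 to 1.21 CPM at 0 h, 1.2 to 1.98 at 1 h, 23.0, 23.2, 27.8 and 29.1 at 5 h, then 54.1, 64.9, 68.3 and 72.0 at 18 h. In BMDM-Nur77-KO they held 0.920 to 1.52, 1.65 to 2.87, 14.3, 17.8, 23.0 and 26.6 at 5 h, and 50.9, 62.2, 62.5 and 66.0 at 18 h. The genotypes overlapped at every time. Lcn2 rose 64.8-fold by 18 h in BMDM-WT (log2 6.02 ± 0.21, adjusted p = 2.3e-21) and 50-fold in BMDM-Nur77-KO (5.64 ± 0.20, adjusted p = 6.2e-21). The genotype difference at 18 h was -0.10 ± 0.14 (adjusted p = 0.66, 95% interval -0.39 to 0.19), and the largest of the 4, at 5 h, was -0.33 ± 0.15 (adjusted p = 0.11).

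Ptx3 (chr3:66219887-66225806) encodes the long pentraxin 3, a soluble pattern recognition molecule that binds microbes and complement components. In BMDM-WT, its CPM was 0, 0.0756, 0.145 and 0.153 at 0 h, 0.711, 1.41, 1.46 and 1.61 at 1 h, 4.16, 4.55, 5.22 and 5.67 at 5 h, then 0, 0, 0.0870 and 0.0915 at 18 h. BMDM-Nur77-KO libraries held 0.182, 0.307, 0.318 and 0.379 at 0 h, 2.70, 2.86, 3.35 and 3.51 at 1 h, 9.01, 9.43, 11.4 and 17.0 at 5 h, then 0.358, 0.535, 0.631 and 0.655 at 18 h. At each time, every BMDM-Nur77-KO library was above every BMDM-WT library in CPM. At 0 h, the lowest BMDM-Nur77-KO library and the highest BMDM-WT library both held 2 counts, so only library size separated them. The highest level was in BMDM-Nur77-KO 5 h replicate 1, which is also the library that lay farthest from its group. Without that library the 5 h difference was 1.022 (log2, adjusted p = 0.00021).

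The genotype difference of Ptx3 was 1.26 ± 0.25 (log2) at 1 h (adjusted p = 0.0012) and 1.25 ± 0.20 at 5 h (adjusted p = 5e-05), or 2.39-fold and 2.38-fold. BMDM-WT was at or under 3 counts in every library at 0 and 18 h, so the ratio of summed counts per depth is given there, with an exact binomial 95% interval that covers counting error only. At 18 h, 27 counts in BMDM-Nur77-KO stood against 2 in BMDM-WT, a ratio of 12.3 (3.09 to 107, adjusted p = 0.00056 in the edgeR test). At 0 h, 16 counts stood against 5, a ratio of 3.62 (1.27 to 12.6, adjusted p = 0.072). From 5 to 18 h, Ptx3 fell in both genotypes, with a log2 fold change of -4.38 ± 0.26 in BMDM-Nur77-KO (adjusted p = 3.9e-15) and a 109-fold lower summed count in BMDM-WT (interval 29.8 to 909, adjusted p = 1.7e-13). Relative to 0 h, BMDM-Nur77-KO at 18 h had a log2 fold change of 0.84 ± 0.45 (adjusted p = 0.099). The difference in the response had an adjusted p of 0.73 at 1 h (-0.47 ± 0.61), 0.77 at 5 h (-0.48 ± 0.59) and 0.46 at 18 h. The 18 h value rests on 0 to 2 counts a library in BMDM-WT and had a wide 95% interval, -0.64 to 3.87 (log2).

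Hp (chr8:109575128-109579172) encodes haptoglobin, the plasma protein that captures free hemoglobin. Its CPM in BMDM-WT was 0.763 to 1.25 at 0 h, 0.803 to 1.46 at 1 h, 2.66 to 3.31 at 5 h, and 10.0, 14.3, 14.9 and 15.1 at 18 h. BMDM-Nur77-KO held 0.632 to 1.67, 0.751 to 1.76, 1.75 to 3.83, and 5.24, 6.06, 6.31 and 7.35 at 18 h. At 18 h the groups did not overlap, although 1 BMDM-WT library, replicate 3, lay below the other 3, whereas at the earlier times they overlapped. Hp rose 13.2-fold from 0 to 18 h in BMDM-WT (log2 3.72 ± 0.24, adjusted p = 9.5e-15) and 6.44-fold in BMDM-Nur77-KO (2.69 ± 0.26, adjusted p = 1e-10). The genotype difference at 18 h was -1.12 ± 0.19 (adjusted p = 4.5e-05), or 0.46-fold. The difference in the response, -1.03 ± 0.38, had an adjusted p of 0.088 (95% interval -1.81 to -0.26). It ranged from -1.22 to -0.65 when each library was left out, with an adjusted p of 0.37 without BMDM-Nur77-KO 0 h replicate 4 and of 0.048 without BMDM-WT 18 h replicate 3.

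Slpi (chr2:164354070-164356507) encodes the secretory leukocyte peptidase inhibitor, which blocks neutrophil elastase. Its counts were low, 0 to 30 in a library. BMDM-WT libraries held 0.229 to 0.454 CPM at 0 h, 0.268 to 0.704 at 1 h, 0.228, 0.946, 1.22 and 1.44 at 5 h, then 1.24, 2.07, 2.20 and 2.52 at 18 h. BMDM-Nur77-KO libraries held 0, 0, 0.0795 and 0.0911 at 0 h, 0.150, 0.428, 0.451 and 0.479 at 1 h, 0.252 to 1.15 at 5 h, and 1.23, 1.78, 2.1 and 2.33 at 18 h. At 0 h, every BMDM-Nur77-KO library was below every BMDM-WT library, with 2 counts in all against 21, and at the other times the groups overlapped.

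The 0 h ratio of Slpi was 9.27-fold lower in BMDM-Nur77-KO (interval 2.27 to 81.6, adjusted p = 0.018). The adjusted p was 0.071 without BMDM-Nur77-KO 0 h replicate 2 and 0.067 without replicate 3. By 18 h, Slpi rose 5.56-fold in BMDM-WT (log2 2.47 ± 0.39, adjusted p = 2e-06) and 48.8-fold by summed counts in BMDM-Nur77-KO (interval 13.1 to 409, adjusted p = 5.2e-09), and the genotype difference at 18 h was -0.12 ± 0.31 (adjusted p = 0.83). The difference in the response at 18 h was 2.79 ± 0.89 (adjusted p = 0.045). It rests on the 2 counts at 0 h, and its adjusted p was under 0.05 in 5 of the 16 fits that left out 1 library, between 0.028 and 0.13. It was highest without BMDM-Nur77-KO 0 h replicate 2 (0.13) or replicate 3 (0.12), and the other 9 that ended the call gave 0.054 to 0.082. The same 2 libraries decided the 1 h response in BMDM-Nur77-KO (adjusted p = 0.013, but 0.063 and 0.051 without them). In BMDM-WT, the 5 h response (adjusted p = 0.0088) was lost without 5 h replicate 3 (0.059), and the change from 5 to 18 h (1.06 ± 0.37, adjusted p = 0.011) without 5 h replicate 1 (log2 0.735, adjusted p = 0.065) or 18 h replicate 3 (log2 0.94, under the fold limit).

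**Figure D3:**
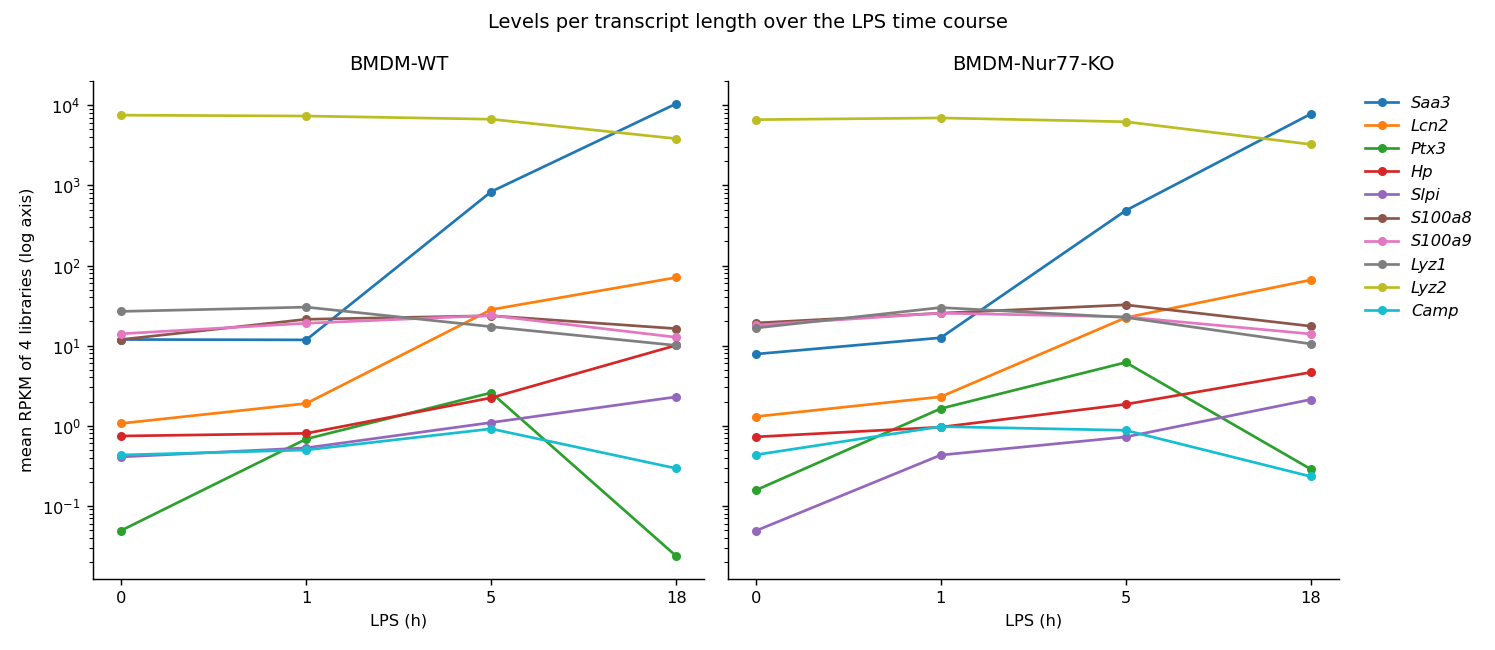
Mean RPKM of 4 libraries for the 10 genes against hours of LPS, on a log axis, with BMDM-WT on the left and BMDM-Nur77-KO on the right. Lyz2 is the highest line until 5 h and Saa3 at 18 h in both panels, where Saa3 reaches 10483 RPKM in BMDM-WT and 7801 in BMDM-Nur77-KO.

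Per transcript length, Lyz2 and Saa3 stood apart from the other genes. At 0 h in BMDM-WT, the mean level of Lyz2 was 7535 RPKM, and the next 4, Lyz1, S100a9, Saa3 and S100a8, were between 11.9 and 26.7 RPKM with each overlapping its neighbour. Lcn2 and Hp (1.07 and 0.744 RPKM) overlapped each other below these, followed by Camp and Slpi (0.431 and 0.408 RPKM), which also overlapped, and by Ptx3 at 0.0492 RPKM. At 18 h in BMDM-WT, Saa3 libraries held 8818 to 11629 RPKM, all above the 3587 to 4005 RPKM of Lyz2, followed by Lcn2 at 59.1 to 78.6 RPKM. In BMDM-Nur77-KO at 18 h, the order of the first 5 genes was Saa3, Lyz2, Lcn2, S100a8 and S100a9 as in BMDM-WT, the last pair with overlapping ranges. Hp, with 7.44 to 11.2 RPKM, overlapped S100a9 and Lyz1 in BMDM-WT at 18 h, whereas in BMDM-Nur77-KO it lay below all Lyz1 libraries, with 3.89 to 5.46 RPKM.

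S100a8 (chr3:90669071-90670034) and S100a9 (chr3:90692630-90695721) encode the subunits of calprotectin, which chelates zinc and manganese and signals through Tlr4. In BMDM-WT, S100a8 was at 3.95, 5.26, 6.24 and 7.71 CPM at 0 h, 8.83 to 11.9 at 1 h, 10.7 to 12.2 at 5 h and 6.87 to 8.87 at 18 h. In BMDM-Nur77-KO, it was at 7.47, 8.66, 9.23 and 11.9 CPM at 0 h, 11.1 to 13.5 at 1 h, 11.3, 14.1, 17.4 and 19.9 at 5 h and 6.24 to 11.1 at 18 h. The BMDM-Nur77-KO libraries were mostly higher, with an overlap of the groups at every time. The genotype difference was 0.70 ± 0.19 (log2) at 0 h (adjusted p = 0.011) and 0.45 ± 0.18 at 5 h (adjusted p = 0.064). The 0 h difference had an adjusted p of 0.075 without BMDM-Nur77-KO 0 h replicate 3 and of 0.06 without BMDM-WT 0 h replicate 2, in the same edgeR test.

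S100a9 showed similar levels, from 4.88 to 16.3 CPM in BMDM-WT and from 6.72 to 14.7 in BMDM-Nur77-KO over all times. Its genotype difference was 0.38 ± 0.18 at 0 h (adjusted p = 0.17), 0.41 ± 0.17 at 1 h (adjusted p = 0.19), -0.05 ± 0.18 at 5 h (adjusted p = 0.85) and 0.14 ± 0.19 at 18 h (adjusted p = 0.64). From 0 to 5 h in BMDM-WT, the log2 fold change of S100a8 was 1.00 ± 0.19 (adjusted p = 2.7e-05) and that of S100a9 0.77 ± 0.18 (adjusted p = 0.00033), both under the fold limit, the former by a margin that other scalings removed. From 5 to 18 h, S100a8 had a log2 fold change of -0.53 ± 0.19 in BMDM-WT and -0.88 ± 0.18 in BMDM-Nur77-KO, and S100a9 of -0.90 ± 0.18 and -0.71 ± 0.18, with adjusted p between 7.4e-05 and 0.013 and all under the fold limit. Per library, the ratio of S100a8 to S100a9 counts was 0.639 to 1.94.

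Camp (chr9:109847377-109849456) encodes cathelicidin, a membrane-damaging peptide stored in neutrophil granules. It was near the limit of detection, with 0 to 13 counts in a library and 0 to 1.11 CPM. In BMDM-WT, it was at 0.260 to 0.381 CPM at 0 h, 0.0669 to 0.704 at 1 h, 0.490 to 0.797 at 5 h and 0.0915 to 0.345 at 18 h. In BMDM-Nur77-KO, it was at 0.182 to 0.506, 0.527 to 1.11, 0.336 to 0.982 and 0 to 0.280 CPM. Groups of both genotypes overlapped at each time, and the largest genotype difference, at 1 h, was 0.93 ± 0.42 (log2, adjusted p = 0.24). From 5 to 18 h, Camp fell, with a log2 fold change of -1.59 ± 0.53 in BMDM-WT (adjusted p = 0.0089) and -1.77 ± 0.53 in BMDM-Nur77-KO (adjusted p = 0.0039). Its rise in BMDM-WT at 5 h (1.09 ± 0.46, adjusted p = 0.037) passed both limits in 3 of the 8 fits without 1 library, and its adjusted p was 0.06 to 0.089 without BMDM-WT 0 h replicate 2 or 3 or 5 h replicate 1, 3 or 4.

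S100a8, S100a9 and Camp are abundant in neutrophils, so genes typical of neutrophils and their precursors were measured beside them. The summed level of 14 such genes other than Camp was 17.4 to 22.5 CPM at 0 h, 20.2 to 26.2 at 1 h, 17.9 to 27.7 at 5 h and 5.95 to 8.63 at 18 h in BMDM-WT, and 20.9 to 23.7, 30.3 to 34.9, 26.2 to 29.8 and 8.41 to 9.41 CPM in BMDM-Nur77-KO. All BMDM-Nur77-KO libraries were above all BMDM-WT libraries at 1 h, and the groups overlapped at the other times. Ngp, a neutrophil granule protein, held 2.47 to 15.6 CPM, Mmp8, neutrophil collagenase, 1.10 to 14.4 and Ltf, lactoferrin, 1.04 to 7.18 CPM. Of the list with Camp, 15 genes, only 4 were tested between the genotypes. Both Ngp (log2 fold change 0.67 ± 0.16, adjusted p = 0.0078) and Ltf (0.73 ± 0.19, adjusted p = 0.013) were higher in BMDM-Nur77-KO at 1 h. Of all genes tested, 2.85% differed at that time. At 0 h, 1 of the 4 was higher (4.81% of all genes tested differed), and 0 passed at 5 h (8.72%) or 18 h (9.82%). Others of the 14 genes had lower levels in both genotypes. Ly6g did not exceed 0.126 CPM, Elane 0.151 CPM, Ctsg 0.183 CPM and Prtn3 0.230 CPM in any library. Between 1 and 6 of the 14 were at 0 in all libraries of a group. The part of these cells in the levels of S100a8, S100a9 and Camp was not tested.

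**Figure D4:**
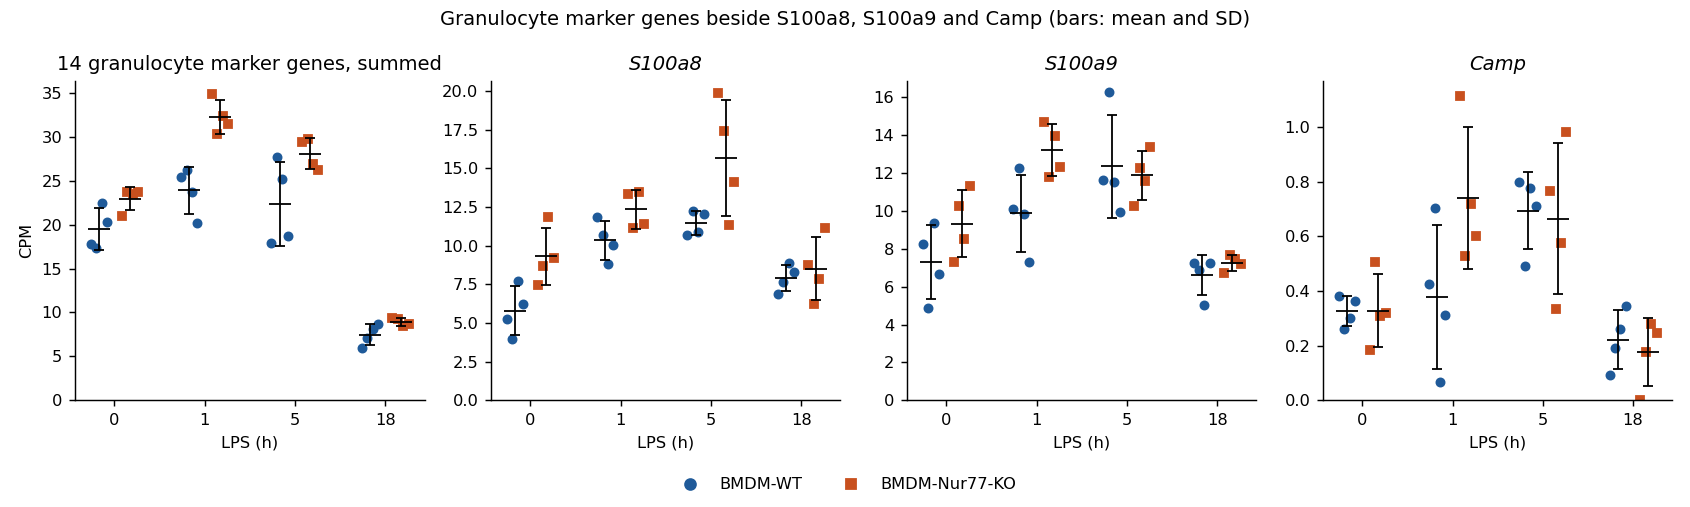
Summed CPM of 14 granulocyte marker genes, and CPM of S100a8, S100a9 and Camp, in each library by hours of LPS, with BMDM-WT as circles, BMDM-Nur77-KO as squares and bars for mean and SD of 4 libraries. The marker sum is lowest at 18 h in both genotypes, 5.95 to 9.41 CPM, as are the mean levels of Camp.

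Lyz2 (chr10:117277541-117282272) encodes the lysozyme of macrophages and Lyz1 (chr10:117287795-117292868) its neighbouring paralog, best known from Paneth cells, both cutting bacterial peptidoglycan. Lyz2 held 7239, 9981, 10875 and 11567 CPM in BMDM-WT at 0 h, 8877 to 10617 at 1 h, 8333 to 9181 at 5 h and 4721, 4986, 5195 and 5271 at 18 h. BMDM-Nur77-KO libraries held 7911 to 9841, 8734 to 10026, 7246 to 8726 and, at 18 h, 3710, 4302, 4504 and 4616 CPM. At 18 h all BMDM-Nur77-KO libraries were below all BMDM-WT libraries, with a genotype difference of -0.24 ± 0.10 (log2, adjusted p = 0.098). From 0 to 18 h, the log2 fold change was -1.02 ± 0.10 in BMDM-Nur77-KO (adjusted p = 2.5e-10), past both limits, and -0.98 ± 0.10 in BMDM-WT (adjusted p = 8.3e-10), just under the fold limit. The first became -0.96 without 0 h replicate 4 or 18 h replicate 3, and the second -1.10 without 0 h replicate 2. The responses differed by -0.05 ± 0.14 (adjusted p = 0.91, 95% interval -0.34 to 0.24). Lyz2 took 0.917% to 1.40% of the counts over the kept transcripts at 0 h in BMDM-WT and 0.437% to 0.512% at 18 h.

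Lyz1 counts were 0.165% to 0.563% of the Lyz2 counts of the same library. The level of Lyz1 was 22.4, 30.5, 38.8 and 43.3 CPM in BMDM-WT at 0 h, 20.0 to 58.6 at 1 h, 13.7 to 26.3 at 5 h and 9.24, 10.8, 14.4 and 16.4 at 18 h. In BMDM-Nur77-KO it was 17.1 to 28.3, 23.4 to 49.1, 24.4 to 33.2 and 9.75 to 18.5 CPM. Groups overlapped between the genotypes at every time. Lyz1 fell from 0 to 18 h in BMDM-WT (log2 fold change -1.40 ± 0.29, adjusted p = 8.6e-05) and from 5 to 18 h in BMDM-Nur77-KO (-1.11 ± 0.29, adjusted p = 0.0013). The genotype difference was largest at 0 h, -0.68 ± 0.27 (adjusted p = 0.1). These values are uncertain, since 195 of the 1214 stretches of 50 bases in the Lyz1 transcript (16.1%) also occur in Lyz2, with a longest shared run of 118 bases, and reads from Lyz2 placed on Lyz1 cannot be separated in the table. No stretch of 150 bases was shared.

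The sequences around the start of both lysozyme genes are shown because these neighbouring paralogs have very different levels. The bases were compared position by position, without gaps. Over the whole 300 bases of the promoters, 201 (67%) were the same, and over the first 180, 86 (47.8%). An inserted or missing base lowers these shares, so they do not measure how far the upstream parts differ. The stretch shown is the one next to the start, more similar by this comparison. Over 120 bases, from 110 before to 10 after the start, 111 bases (92.5%) were the same, and capitals mark the 9 that differ.
Lyz1 (chr10:117292859-117292978, minus strand): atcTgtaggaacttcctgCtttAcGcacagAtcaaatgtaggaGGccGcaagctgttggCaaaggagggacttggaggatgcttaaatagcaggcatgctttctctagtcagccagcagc
Lyz2 (chr10:117282263-117282382, minus strand): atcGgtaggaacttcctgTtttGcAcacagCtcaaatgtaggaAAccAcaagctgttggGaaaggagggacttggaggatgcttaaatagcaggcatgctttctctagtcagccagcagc

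Genes with the most similar course were found by Pearson's r of log2 CPM over the 32 libraries, which share normalization and groups, so r is a description. Saa3 was most like Ms4a6d (r = 0.997), H2-T22 (0.996) and the complement factor Cfb (0.996), and Lcn2 like Fpr2 (0.991), Itgal (0.990) and Cfb (0.989). Ptx3 was most like Otud1 (0.968), Trim13 (0.957) and Spryd7 (0.950), and Hp like Ly6a (0.965), Ass1 (0.952) and Gm5424 (0.951). For Slpi these were H2-Ab1 (0.907), Lpcat2 (0.889) and Eva1b (0.889), for S100a8 Clec12a (0.849), Chil3 (0.847) and Ddx5 (0.830), and for S100a9 Dlst (0.865), Ngp (0.830) and 4833438C02Rik (0.828). Lyz2 was close to Eif3l (0.978) and Fdft1 (0.975), and Lyz1 like Ctse (0.809), Eif3l (0.805) and Dhrs7 (0.801). For Camp no gene exceeded 0.725, with Pdgfc, Fyn and A630072M18Rik first. Within the 10 genes, r was 0.983 for Saa3 and Lcn2, 0.933 for Saa3 and Hp, 0.695 for S100a8 and S100a9 and -0.02 for Saa3 and Ptx3.

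Other genes of the same families were listed for comparison. Of 19 other acute-phase genes, 7 were tested, and all 7 were higher at 5 and at 18 h than at 0 h in both genotypes. Of all genes tested, 33.7% and 27.4% responded at 5 and 18 h in BMDM-WT, and 32.6% and 31.8% in BMDM-Nur77-KO. Genes low at 0 h could enter the test only through a group mean over 1 RPKM after LPS. The number that rose is therefore partly set by this filter, here and in the lists below. Of the 7 genes, BMDM-Nur77-KO cells had 2 lower at 0 h and 3 higher at 18 h. Between the genotypes, 4.81% of all genes tested differed at 0 h and 9.82% at 18 h, in either direction. Serpina3g, a serine protease inhibitor, was at 1.93 ± 0.38 CPM in BMDM-WT and 0.255 ± 0.125 in BMDM-Nur77-KO at 0 h (adjusted p = 0.00059) but at 118 ± 16.0 and 289 ± 38.5 CPM at 18 h (adjusted p = 1.1e-05). Its neighbour Serpina3f went the same way, from 1.66 ± 0.65 and 0.176 ± 0.12 CPM (adjusted p = 0.00061) to 33.2 ± 4.18 and 99.6 ± 3.30 CPM (adjusted p = 5.4e-07), and these paralogs may share reads. The response at 18 h differed between the genotypes for Serpina3g (log2 4.07 ± 0.56, adjusted p = 6.7e-06) and Serpina3f (4.73 ± 0.62, adjusted p = 3.1e-06). Both values rest in part on the BMDM-Nur77-KO levels of 0.255 and 0.176 CPM at 0 h, near the limit of detection. Hamp, the iron hormone hepcidin, was at 0.154 ± 0.148 CPM in BMDM-WT and 0.96 ± 0.0458 in BMDM-Nur77-KO at 18 h (adjusted p = 0.0011), also near the limit of detection. Il1rn, the interleukin 1 receptor antagonist, at 2076 ± 245 and 2633 ± 682 CPM, and Cp, ceruloplasmin, at 401 ± 38.8 and 511 ± 72.4 CPM, were among the 4 that did not pass at 18 h.

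Of 23 other antimicrobial genes, 11 were tested. At 5 h, 6 were higher than at 0 h in BMDM-WT (33.7% of all genes tested responded) and 4 in BMDM-Nur77-KO (32.6%). Compared with BMDM-WT, BMDM-Nur77-KO cells had 2 of the 11 higher and 1 lower at 0 h and 2 higher at 1 h. They had 2 lower at 5 h and 2 higher at 18 h. Of all genes tested, 4.81%, 2.85%, 8.72% and 9.82% differed at these 4 times, in either direction. Nos2, the inducible nitric oxide synthase, was at 1455 ± 74.3 CPM in BMDM-WT and 919 ± 93.3 in BMDM-Nur77-KO at 5 h (adjusted p = 0.0015) and at 655 ± 44.1 and 1883 ± 114 CPM at 18 h (adjusted p = 2.3e-09). Wfdc17, a whey acidic protein family member like Slpi, was at 303 ± 10.3 and 192 ± 31.7 CPM at 5 h (adjusted p = 2.3e-05), and Wfdc21 at 0.0218 ± 0.0435 and 0.385 ± 0.208 CPM at 18 h (adjusted p = 0.0042), in at most 7 counts a library. Acod1, which makes itaconate, was lower without Nur77 at 0 h, 2.46 ± 0.78 against 6.00 ± 0.97 CPM (adjusted p = 6.2e-05), and Ltf and Chil3 were higher (log2 0.62 ± 0.20 each, adjusted p = 0.034 and 0.033). Lgals3, Mpeg1 and Cybb, the most abundant of the list beside Acod1, did not pass at any time between the genotypes.

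Of 15 genes for receptors and binding partners of these proteins, 11 were tested. The scavenger receptor Cd36 was higher without Nur77 at 0 h (4696 ± 655 against 3010 ± 196 CPM, log2 0.64 ± 0.13, adjusted p = 0.00077), and no other passed between the genotypes at any time. At 0, 1, 5 and 18 h, 4.81%, 2.85%, 8.72% and 9.82% of all genes tested differed. Among the most abundant of the list, the complement genes C1qb and C1qc and the heme oxygenase Hmox1, Hmox1 went from 447 ± 22.1 CPM at 0 h to 2658 ± 185 at 18 h in BMDM-WT and from 422 ± 18.2 to 2514 ± 285 in BMDM-Nur77-KO. Of 16 upstream regulators, 14 were tested. In BMDM-Nur77-KO, 1 was lower at 0 h, another at 1 h, 1 was higher at 5 h, and 7 were higher at 18 h. Of all genes tested, 4.81%, 2.85%, 8.72% and 9.82% differed at these 4 times, in either direction. Il6, the cytokine that drives the acute phase response in liver, was at 4.11 ± 1.46 CPM in BMDM-WT and 52.3 ± 9.31 in BMDM-Nur77-KO at 18 h (log2 3.66 ± 0.24, adjusted p = 2.4e-11), after a lower level at 1 h (-0.87 ± 0.26, adjusted p = 0.041) and a higher one at 5 h (0.61 ± 0.18, adjusted p = 0.019). The others at 18 h were Il1b (1.30 ± 0.14, adjusted p = 1.1e-08), Nfkb1 (0.75 ± 0.08, adjusted p = 1.6e-08), Rel (0.75 ± 0.12, adjusted p = 2.8e-05), Stat3 (0.68 ± 0.08, adjusted p = 2.7e-07), Nfkbiz (0.66 ± 0.09, adjusted p = 6.4e-07) and Tnf (0.64 ± 0.12, adjusted p = 0.00021), and Il1b was the gene lower at 0 h (-0.68 ± 0.21, adjusted p = 0.032). In the same 18 h libraries, every BMDM-Nur77-KO level of Saa3, Hp and Lyz2 lay below the BMDM-WT levels. Every level of Ptx3 lay above them, and Lcn2 and the remaining members overlapped. Serpina3g, Serpina3f and Hamp, of the other acute-phase genes, were higher, as given above.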

How the data were processed

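RNA-seq was measured in 32 libraries, 4 for each genotype and time. The authors mapped the read pairs with HISAT2 2.1.0 (mm10), kept well-mapped alignments using SAMtools, and used HOMER to count tags on each RefSeq transcript. The deposited values are expected counts without normalization, in steps of 0.5, and 28.6% are not whole. Of 42361 transcripts, 93 could not be named. For each of 25067 genes the most abundant transcript was used, which for Hp and S100a9 meant 1 of 2, and its counts were rounded to whole numbers. Totals were 8742362 to 15780926 per library. Unnamed transcripts took 0.233% to 1.37% of the tags and were left out. Strand use in the counting was not given in the sources used here.

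With R 4.3.3, edgeR 4.0.16 (limma 3.58.1) scaled the counts by TMM and fitted a quasi-likelihood model with 8 group means. Genes were tested if any group mean exceeded 1 RPKM on unscaled library totals (11279), with Benjamini-Hochberg adjustment over them. Printed CPM and RPKM use TMM-scaled library sizes. Groups were taken from the sample labels. Gene positions are from GENCODE M21 on GRCm38, promoters from RefSeq (GRCm38.p6). The genes named are the 10 genes, Nr4a1, the genes of each list that differed between the genotypes or were the 4 most abundant, marker genes, and the 3 genes most like each of the 10 over the libraries, of which 1 is not reported here. The 10 genes and the lists were chosen with earlier results of these data known. Alternatives were DESeq2 1.42.0, DESeq2's size factors, filterByExpr, no filter, the compared libraries only, a replicate block, no fold limit, every transcript, and leaving out each library. The procedure was tested on simulated data.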

Additional observations from a re-analysis of the deposited data

Results flagged for a closer look

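Hp at 18 h in BMDM-WT had 1 library away from the others: replicate 3 held 10.0 CPM (10.006), and the nearest of the other 3 held 14.3 CPM. The BMDM-Nur77-KO libraries at 18 h, 5.24 to 7.35 CPM, were below all 4. Slpi at 1 h in BMDM-Nur77-KO had a low library as well, replicate 2 with 0.150 CPM against 0.428 CPM in the nearest, which corresponds to 2 counts. These 2 were found by Dixon's test in 80 groups of 4 libraries (10 genes in 8 groups), and chance alone flags about 1 in 20 groups.

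The response of Slpi to LPS at 18 h relative to 0 h differed between the genotypes by 2.79 on the log2 scale (adjusted p = 0.045 in the edgeR model, higher in BMDM-Nur77-KO). It rests on 0 h, where 4 of 4 BMDM-Nur77-KO libraries, with 0 to 1 counts, were below all BMDM-WT libraries, with 3 to 6.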

How the results depend on the processing

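No difference that passed its limits changed direction under any alternative that was run. The count of the 10 genes whose LPS response at 18 h differed between the genotypes was 1 and became 0 with DESeq2's Wald test (Slpi, adjusted p = 0.055) and 0 without a filter on low counts (0.057), where 18060 genes were tested. Without a fold limit, 3 genes in place of 1 responded at 1 h in BMDM-WT, 4 in place of 2 at 1 h in BMDM-Nur77-KO, and all 10 in place of 6 changed from 5 to 18 h in BMDM-WT. The genotype difference of Saa3 at 0 h (-0.60) no longer passed the fold limit with DESeq2's test (-0.58, adjusted p = 0.003), with its size factors (adjusted p = 0.0048) and in the compared libraries only (adjusted p = 0.013). S100a8 at 5 h in BMDM-WT passed the fold limit under 7 alternatives with log2 values up to 1.09, and Lyz2 at 18 h in BMDM-Nur77-KO missed it with DESeq2's scaling (-0.99).

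Leaving out each library in turn gave 1 to 3 genes that differed between the genotypes at 0 h, 1 at 1 h, and 2 at both later times. The count of 1 at 0 h came without BMDM-Nur77-KO 0 h replicate 2 or replicate 3. LPS responses numbered 1 to 2 at 1 h, 5 to 7 at 5 h, 5 to 6 at 18 h and 5 to 6 between 5 and 18 h in BMDM-WT, and 1 to 3, 5 to 6, 4 to 5 and 6 to 8 in BMDM-Nur77-KO. Differences in the response were 0 at 1 h, 0 at 5 h and 0 to 2 at 18 h.

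A pairing of the libraries by replicate number was not seen: no comparison had a correlation of deviations over 0.1 in all 4 pairs. It was not excluded, since up to 2 of the 4 pairs in a comparison exceeded 0.1. With the replicate block, the counts were 3, 1, 2 and 2 genes between the genotypes and 1, 7 and 5 for LPS in BMDM-WT, with 2, 5 and 5 in BMDM-Nur77-KO, 6 and 7 from 5 to 18 h, and 0, 0 and 1 for the differences in response. Depth limits Camp, Slpi and Ptx3, which had 0 to 13, 0 to 30 and 0 to 156 counts in a library.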
